A study of Mus musculus with 4 samples.

Results

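The serpins, a family of protease inhibitors and related proteins, were followed gene by gene in single cells of mouse back skin dermis. The members described were genes whose symbol in the deposited files began with Serpin, without Serping1 and pseudogene symbols ending in -ps, and numbered 60 of the 27999 genes in each file. Of these, 30 had at least 50 unique molecular identifiers (UMIs, each the tag of 1 captured RNA molecule) over all deposited barcodes, 17 had 1 to 49 UMIs, and 13 had none. Serpina3i, with 69 UMIs, lay just above that limit and Serpinb11, with 43, just below it. The 60 genes held 457743 UMIs, and 4 of them, Serpinh1, Serpinf1, Serpine2 and Serpinb6a, held 80.3%. The 17 low genes were Serpinb11, Serpina1e, Serpinb1b, Serpina9, Serpinb13, Serpina1b, Serpina1d, Serpina6, Serpinf2, Serpina11, Serpina3k, Serpinb6d, Serpinb6e, Serpina1a, Serpinb1c, Serpinb3c and Serpina1c, which are not described further, and no UMI was found for Serpina16, Serpina1f, Serpina3a, Serpina5, Serpina7, Serpinb3d, Serpinb9c, Serpinb9d, Serpinb9e, Serpinb9f, Serpinb9g, Serpine3 and Serpini2.

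Droplet RNA-seq by 10x gave 4 libraries: a 2-month and an 18-month library made with version 2 of the 3' chemistry, and another 2-month and a 12-month library made with version 3. All mice were C57BL/6J carrying α-SMACreERT2, a tamoxifen-inducible Cre under the smooth muscle actin promoter, which is active in the dermal sheath, and all were given tamoxifen at postnatal day 3 and 4, the controls of every comparison included. The version 2 mice carried the RosaYFP reporter and the version 3 mice RosaTDTomato, so chemistry and reporter cannot be told apart, although transcripts counted as eYFP were present in all 4 libraries (1165 to 2934 CPM, the UMIs of a gene per 1000000 UMIs of the cells summed). Xist, a transcript of the inactive X chromosome, was near 0 in version 2 but reached 831 and 849 CPM in version 3, so sex goes with chemistry too. Each library pooled 2 mice and mixed 5000 cells that were reporter-positive with 5000 that were Cd26-positive, both gates also requiring Itga9 or Cd200. The submitters counted the 12-month mice as young. Each age in each chemistry is 1 library, and the spread between mice of 1 age was not measured.

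Serpins trap a target protease by offering it a reactive loop as bait and then changing shape, which leaves both proteins inactive in a covalent complex. Secreted members hold the plasminogen, thrombin and elastase systems in check, the clade B members mostly act inside cells, and a few members, among them the collagen chaperone encoded by Serpinh1 and the secreted factor encoded by Serpinf1, inhibit no protease. In skin the family is known from the epidermis, where clade B serpins are made by keratinocytes, and from the follicle's mesenchyme, where Serpine2 is a dermal papilla gene.

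The 4 files held 1906 to 7023 barcodes and 17831300 to 77032628 UMIs, and 1677, 2431, 5388 and 3964 cells were kept at 2 and 18 months (version 2) and 2 and 12 months (version 3). The median depth was 6260 and 6588 UMIs per cell in version 2 and 11934 and 11786.5 in version 3, so levels are compared between ages within a chemistry. The version 3 libraries shared 84 cell barcodes (1.535% of the smaller library) and the version 2 libraries 7. Clusters were named from marker lists, after clustering without any Serpin gene, and are called papilla-like, sheath-like and so on for that reason. The papilla-like class lay mostly in cluster 0 in version 2 and in cluster 13 in version 3, and most sheath-like cells lay in clusters led by 1 library: cluster 16 by the 2-month version 3 library, cluster 18 by the 12-month library and cluster 19 by the 18-month library. Cells kept from the sort also included 930 keratinocyte-like and 1958 macrophage and dendritic-like cells. Levels, in CPM, are compared within a gene only, since genes differ in how well their 3' ends are captured. Intervals cover 95% and counting error only.

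The class with the highest level differed from serpin to serpin. By mean CPM over the libraries with at least 10 cells of a class, 12 of the 30 genes were highest in keratinocyte-like cells, 4 in fibroblast-like cells, 4 in pericyte-like cells, and 2 each in endothelium-like, papilla-like, cycling, and macrophage and dendritic-like cells. The sheath-like class led for Serpind1 and the arrector pili-like class for Serpina3i, the last from 1 UMI. The same class led in all 4 libraries for 13 of the 30 genes.

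**Figure D1:**
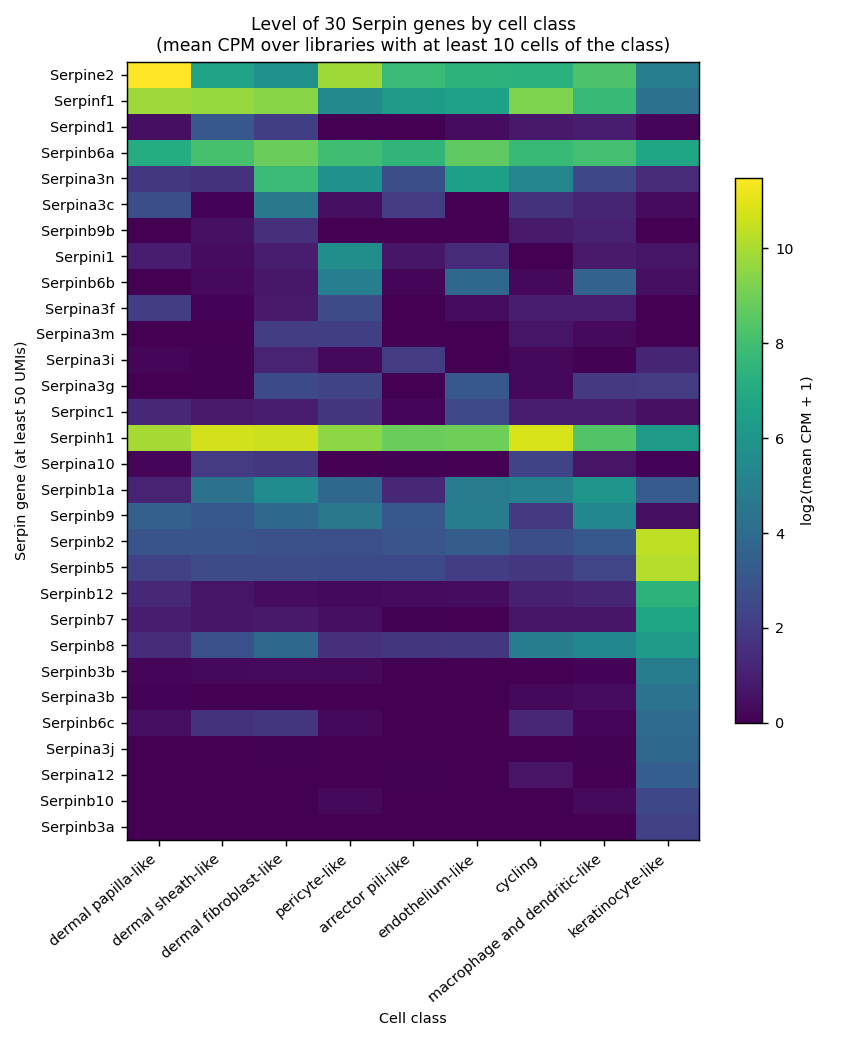
Rows are the 30 Serpin genes with at least 50 UMIs and columns the cell classes; colour is log2 of the mean CPM over libraries plus 1, using libraries with at least 10 cells of the class. The 12 lowest rows are the genes that were highest in keratinocyte-like cells, and Serpinh1, Serpinf1 and Serpinb6a spread over many classes.

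Of the 12 genes highest in keratinocyte-like cells, 8 are Serpinb genes that lie together on chromosome 1, while Serpinb6c lies on chromosome 13 and Serpina12, Serpina3b and Serpina3j on chromosome 12. In GRCm38, 11 Serpinb members with a match in the annotation sit on chromosome 1 between 106861173 and 107610484, and 7 of them reached 50 UMIs, while 15 Serpinb members sit on chromosome 13 between 32842092 and 34002794, with 6 at 50 UMIs or more. The 10 Serpina3 members lie on chromosome 12 between 104112724 and 104414329, with 8 at 50 UMIs or more. Promoter windows from 250 bases before to 50 bases after the annotated start were taken from RefSeq (GRCm38.p6), in which 53 of the 60 members had 62 entries. The letters TGANTCA, a looser form of the core TGA(C/G)TCA bound by AP-1 factors, read the same on both strands. They were found in 7 of the 11 Serpinb members of chromosome 1 with an entry (Serpinb10, placed there by RefSeq, among them), in 0 of 14 on chromosome 13, in 0 of 8 Serpina3 members and in 4 of 20 other members, namely Serpina1a, Serpina1b, Serpina1c and Serpina1d. Over all 32851 RefSeq promoter windows the share with TGANTCA was 7.81%. The stricter core was matched in Serpinb7, Serpinb8 and the 4 Serpina1 members only, and its share over all windows was not counted. The matches in Serpinb2, Serpinb5, Serpinb10, Serpinb11 and Serpinb12 read TGAATCA or TGATTCA. Of the 7 genes, Serpinb2, Serpinb5, Serpinb7, Serpinb8, Serpinb10 and Serpinb12 were highest in keratinocyte-like cells, and Serpinb11 was too low to place. Serpinb3a and Serpinb3b, also highest in keratinocyte-like cells, had an entry with no match, and so did the other of the 2 Serpinb12 windows, which starts at 106938707. The windows of 5 of the 7 genes are shown because these genes carry most of the keratinocyte signal, with each TGANTCA match in capitals and, in Serpinb2, also a match to TTCNNNGAA, the palindrome bound by STAT factors.
Serpinb5, chr1:106860925-106861224, + strand: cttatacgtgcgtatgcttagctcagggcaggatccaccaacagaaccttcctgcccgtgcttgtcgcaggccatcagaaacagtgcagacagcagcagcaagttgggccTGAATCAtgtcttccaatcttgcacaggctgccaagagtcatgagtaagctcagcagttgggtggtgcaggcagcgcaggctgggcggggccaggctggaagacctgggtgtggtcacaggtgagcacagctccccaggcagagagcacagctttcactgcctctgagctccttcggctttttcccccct
Serpinb12, chr1:106934199-106934498, + strand: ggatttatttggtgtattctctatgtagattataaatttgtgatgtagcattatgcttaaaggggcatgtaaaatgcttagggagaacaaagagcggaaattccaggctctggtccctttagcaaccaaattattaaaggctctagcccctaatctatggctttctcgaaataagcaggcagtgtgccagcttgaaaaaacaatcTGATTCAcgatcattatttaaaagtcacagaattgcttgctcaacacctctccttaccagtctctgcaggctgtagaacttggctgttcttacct
Serpinb7, chr1:107422439-107422738, + strand: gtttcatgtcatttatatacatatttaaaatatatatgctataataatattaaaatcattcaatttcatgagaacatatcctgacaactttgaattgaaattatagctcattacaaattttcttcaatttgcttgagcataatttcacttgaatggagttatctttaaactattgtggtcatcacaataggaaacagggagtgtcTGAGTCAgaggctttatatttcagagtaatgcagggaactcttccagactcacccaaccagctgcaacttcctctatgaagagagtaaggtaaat
Serpinb2, chr1:107511173-107511472, + strand: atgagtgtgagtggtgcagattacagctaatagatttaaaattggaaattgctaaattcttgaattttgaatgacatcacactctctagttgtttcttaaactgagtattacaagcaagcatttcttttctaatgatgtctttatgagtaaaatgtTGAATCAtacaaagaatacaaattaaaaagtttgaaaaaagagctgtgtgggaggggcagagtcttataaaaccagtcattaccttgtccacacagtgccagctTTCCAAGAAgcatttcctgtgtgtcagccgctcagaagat
Serpinb8, chr1:107589756-107590055, + strand: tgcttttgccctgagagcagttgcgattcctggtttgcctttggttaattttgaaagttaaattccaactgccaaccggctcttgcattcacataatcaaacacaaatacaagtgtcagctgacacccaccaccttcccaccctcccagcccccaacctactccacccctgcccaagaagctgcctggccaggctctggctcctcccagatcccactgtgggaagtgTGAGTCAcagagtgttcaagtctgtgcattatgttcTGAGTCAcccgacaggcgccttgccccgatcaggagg
Counted from the annotated start, the matches began at -140 in Serpinb5, -45 in Serpinb12, -45 in Serpinb7, -94 in Serpinb2 and at -23 and 13 in Serpinb8. A match in these letters is a description of the sequence and was not tied to binding of any factor.

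Serpinb5 (maspin), Serpinb2 (the plasminogen activator inhibitor PAI-2), Serpinb12 and Serpinb7 were nearly confined to keratinocyte-like cells, which held 98.0%, 97.4%, 98.2% and 97.6% of their UMIs in kept cells. In that class Serpinb5 stood at 1276 and 965 CPM at 2 and 18 months (version 2) and 1233 and 1211 CPM at 2 and 12 months (version 3). Serpinb2 stood at 854 and 1579 CPM in version 2 and 1389 and 1408 CPM in version 3. Serpinb12 stood at 269.8, 139, 145 and 123 CPM in the same order, and Serpinb7 at 134, 93.4, 111 and 82.2 CPM. The lowest of these levels was above every level of the same gene in any other class.

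The share of keratinocyte-like cells with a Serpinb5 UMI was 95.4%, 85.7%, 90.8% and 90.4% in the order above, at median depths of 25571, 12991, 19053 and 19691 UMIs. The background for Serpinb5, read in papilla-like cells, was 4.23%, 1.51%, 3.07% and 1.28% of cells at median depths of 5036.5, 5763, 8293.5 and 8018 UMIs. Thinned to 3000 UMIs per cell, Serpinb5 was found in 88.0%, 70.1%, 75.3% and 73.8% of keratinocyte-like cells and in at most 1.65% of papilla-like cells. Serpinb2 was found in 82.2%, 53.1%, 62.3% and 54.3% of keratinocyte-like cells and 2.04% to 6.43% of papilla-like cells, and in 59.1%, 46.9%, 54.7% and 47.7% of keratinocyte-like cells after thinning.

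The 2-month version 2 library stood apart for these genes when all kept cells were summed. Serpinb5 was at 508 CPM there and at 129 to 136 CPM in the other 3 libraries, Serpinb2 at 343 CPM against 150 to 212, Serpinb12 at 108 CPM against 13.1 to 18.6, and Serpinb7 at 53.7 CPM against 8.81 to 12.7. That library had 15.4% keratinocyte-like cells (13.7% to 17.3%) against 5.52% to 6.05% in the others, and 218 of the 240 cells of the suprabasal cluster 2 came from it. Within keratinocyte-like cells Serpinb5 at 18 months was 0.756 (0.722 to 0.791) of its 2-month level, in place of 0.253 over all kept cells.

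Lower-level members of the same class followed. Serpinb8, an inhibitor of furin-like proteases, was at 57.5 to 91.9 CPM in keratinocyte-like cells. The macrophage and dendritic-like class also held it, at 11.1 and 13.5 CPM in version 2 and 91.5 and 44.5 CPM at 2 and 12 months in version 3, where the macrophage cluster 12 carried 129 and 84.8 CPM. Serpinb3b, a mouse member of the squamous cell carcinoma antigen group, was at 20.9 to 45.4 CPM, and its relative Serpinb3a at 12.1 CPM in the 2-month version 2 library and at 0.266 to 1.51 CPM elsewhere. Serpinb6c was at 43.1 CPM in the 2-month version 2 library and at 4.83 to 7.18 CPM in the other 3. Serpinb10 was at 3.21 to 7.25 CPM, and Serpina12 (vaspin), a kallikrein inhibitor, at 7.41 and 3.22 CPM in version 2 and 21.3 and 6.62 CPM in version 3.

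Serpina3b and Serpina3j were carried by a handful of cells. Of the 416 Serpina3b UMIs at 12 months, 405 lay in 8 cells of the keratinocyte-like cluster 14, led by Krt15, Krt5 and Krt14, and 268 in 1 of them. Serpina3j showed the same form, with 280 of 286 UMIs of the 12-month library in 7 cells of that cluster and 140 in 1 cell. The 7 cells with a UMI of both genes held 402 Serpina3b and 280 Serpina3j UMIs. Among all kept cells Serpina3b had 0, 1 and 9 UMIs in the other libraries and Serpina3j 1, 0 and 0. In the last 600 bases of their transcripts neither gene shared a 60-base stretch with any other member.

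No Serpin gene passed the test of age in keratinocyte-like cells, in which the 12- and 18-month libraries were compared with both 2-month libraries by edgeR's quasi-likelihood F-test with chemistry as covariate, 1 residual degree of freedom and adjustment over all genes tested. Of 16 members tested 0 were called, as were 0 of all 11134 genes (percent called 0), and at an unadjusted p under 0.05 there were 2 members and 709 genes (6.37%). DESeq2 called 0 members. Serpina12 was at 0.435 (0.177 to 0.928) of its 2-month level at 18 months and 0.311 (0.209 to 0.451) at 12 months, with a log2 fold of -1.67 ± 0.39 (SE) and an edgeR adjusted p of 0.775 (0.03 to 1 over the alternatives). Counts of genes changed at least 2-fold the same way in both chemistries cover, here and in the other classes, genes with at least 10 UMIs in a library of each pair. Among these Serpina12 was the only member lower in keratinocyte-like cells, a pattern of 0.695% of genes, and no member was higher (0.989%). Serpina3n fell short of that count, with 1 and 5 UMIs in version 2 and 1 and 21 in version 3, ratios of 12.8 (1.43 to 604) and 29.9 (4.81 to 1236) and a log2 fold of 4.02 ± 1.15 that was not called (edgeR adjusted p = 0.775). The median log2 fold was -0.45 over members and 0.02 over all genes tested. The median gene was itself 0.51 higher on the log2 scale at 18 months before this scaling, and the summed level of 11 inner root sheath and hair shaft markers went from 370 to 2637 CPM in version 2 and from 1125 to 3670 CPM in version 3. That of 13 suprabasal markers went from 106202 to 52415 CPM and from 59451 to 47744 CPM. The part of these markers in the values above was not tested.

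**Figure D2:**
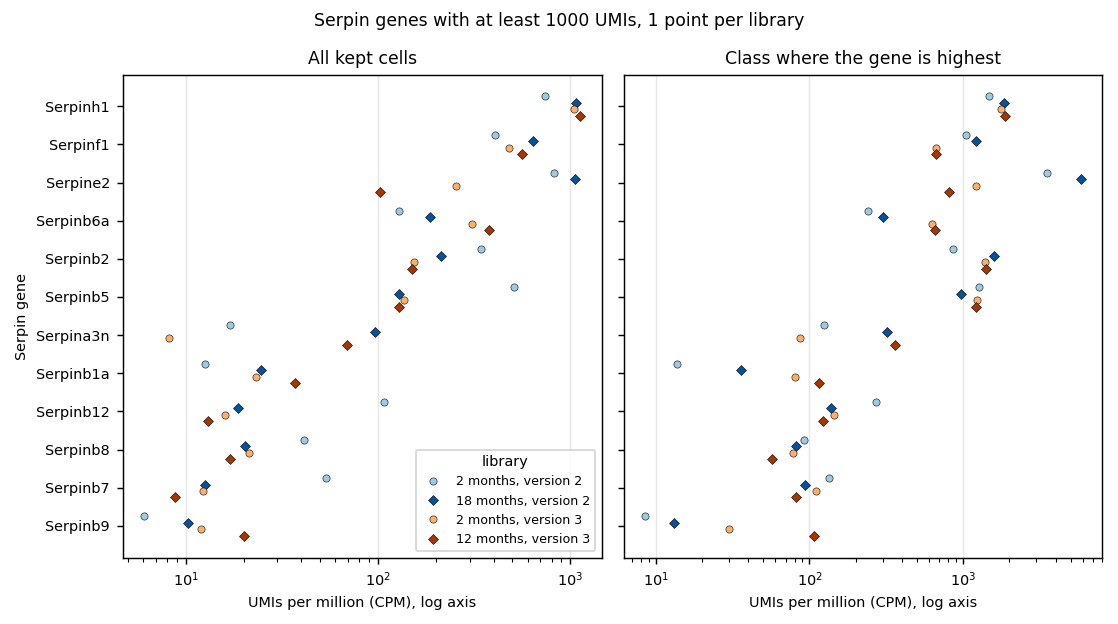
Each row is 1 of the 12 Serpin genes with at least 1000 UMIs and each point 1 library, in CPM on a log axis, over all kept cells (left) and in the class where the gene was highest (right). The 2-month version 2 points of Serpinb5, Serpinb12 and Serpinb7 are the highest of each gene on both panels, for Serpinb12 at 108 CPM against 13.1 to 18.6 on the left and at 269.8 CPM against 123 to 145 on the right; Serpina3n lies higher at 12 and 18 months on both panels.

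Serpinh1 encodes HSP47, the chaperone that binds collagen in the endoplasmic reticulum, and had the most UMIs of the family (172557). Its level over all kept cells was 742 and 1076 CPM at 2 and 18 months in version 2 and 1042 and 1123 CPM at 2 and 12 months in version 3. It was highest in cycling cells, at 1472, 1839, 1773 and 1862 CPM, and close to that in sheath-like cells, at 1983, 1446, 1542 and 1530 CPM, and in fibroblast-like cells, at 1771, 1725, 1359 and 1303 CPM. Papilla-like cells held 912 to 1050 CPM and keratinocyte-like cells 21.9 to 136 CPM. At least 1 Serpinh1 UMI was found in 81.0% to 86.8% of all kept cells. In macrophage and dendritic-like cells Serpinh1 stood at 572, 388, 228 and 98.4 CPM, in the order of the libraries above. The summed level of 17 papilla markers in that class was 3972, 1611, 854 and 439 CPM, and that of 14 sheath markers 2372, 2630, 1374 and 914 CPM. Fibroblast markers summed to 1123, 797, 2421 and 573 CPM (12 of lower dermis and fascia) and 1970, 1449, 1362 and 465 CPM (12 reticular). The 7 perifollicular markers summed to 1172, 1247, 414 and 415 CPM. The part of these markers in the Serpinh1 level was not tested.

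Collagens and their folding enzymes were read beside Serpinh1. Over all kept cells Col1a1, a chain of type I collagen and client of the chaperone, went from 3333 to 9089 CPM in version 2 and from 7200 to 8358 CPM in version 3, without a call. Of the 22 genes in that list 21 were tested in each class, and 1 was called in any of them. This was Plod2, a collagen lysyl hydroxylase, which fell in fibroblast-like cells by 1.14 ± 0.20 on the log2 scale (edgeR adjusted p = 0.00787). Of all genes, 3.86% were called in fibroblast-like, 4.60% in sheath-like and 1.62% in papilla-like cells, and none in the other classes tested. The median log2 fold of the list was -0.03 in papilla-like, -0.16 in sheath-like and 0.09 in fibroblast-like cells, and Serpinh1 itself had 0.09 ± 0.17, -0.22 ± 0.12 and 0.01 ± 0.16. None of the 3 differences passed the test (adjusted p 0.945, 0.505 and 0.994).

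Serpinf1 encodes PEDF, a secreted anti-angiogenic factor that binds collagen. It marked the fibroblastic classes, with 1039 and 1205 CPM in papilla-like cells of version 2 and 664 and 666 CPM in version 3, 853 and 1038 and then 667 and 756 CPM in sheath-like cells, and 758 and 725 and then 624 and 652 CPM in fibroblast-like cells. Pericyte-like cells held 27.7 to 58.3 CPM and keratinocyte-like cells 8.36 to 25.4 CPM. Its level over all kept cells was 405 and 639 CPM in version 2 and 481 and 565 CPM in version 3. No class gave a call, and the log2 folds were 0.14 ± 0.17 in papilla-like, 0.24 ± 0.12 in sheath-like and 0.06 ± 0.15 in fibroblast-like cells. Of 5 genes reported as Serpinf1 receptors, Plxdc1 rose in papilla-like cells by 1.27 ± 0.27 (edgeR adjusted p = 0.0122) and in fibroblast-like cells by 1.90 ± 0.29 (adjusted p = 0.00405), and Plxdc2 rose in sheath-like cells by 0.53 ± 0.12 (adjusted p = 0.00156), all on the log2 scale. All 5 were tested in each of these classes and 1 was called in each. Beside these stood 1.62%, 3.86% and 4.60% of all genes called in papilla-, fibroblast- and sheath-like cells.

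Serpine2 (chr1:79794197-79861180, minus strand, GRCm38) encodes protease nexin-1, a thrombin and plasminogen activator inhibitor, and it marked the papilla. Papilla-like cells held 78.0% of its UMIs, at 3501 and 5818 CPM at 2 and 18 months (version 2) and 1215 and 812 CPM at 2 and 12 months (version 3). Pericyte-like cells were next by mean CPM, at 924, 940, 572 and 1254 CPM. The last of these came from 14 cells and was above the papilla-like level of that library. Macrophage and dendritic-like cells held 658, 483, 48.9 and 28.2 CPM, and fibroblast-like cells 99.6, 46.3, 23.1 and 44.4 CPM. Serpine2 was found in 98.0%, 99.6%, 96.4% and 90.3% of papilla-like cells and, as background, in 29.7%, 38.1%, 22.3% and 11.9% of keratinocyte-like cells, which are deeper. After thinning to 3000 UMIs these were 95.2%, 99.1%, 84.6% and 73.5% against 5.41%, 13.6%, 5.57% and 3.27%.

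With age the papilla level of Serpine2 went opposite ways in the 2 chemistries. It was 1.66 (1.62 to 1.70) times the 2-month level at 18 months and 0.669 (0.643 to 0.695) times at 12 months, and the combined log2 fold of 0.11 ± 0.23 was not called (edgeR adjusted p = 0.95). Each side of these ratios is 1 library, so they cannot be set against a spread between libraries of 1 age. Over all kept cells Serpine2 went from 823 to 1054 CPM and from 254 to 102 CPM, while the share of papilla-like cells went from 32.4% to 19.1% and from 19.97% to 9.89%. Papilla markers summed to 15675 and 14794 CPM within the class in version 2 and to 16350 and 11746 CPM in version 3.

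Proteases and receptors that Serpine2 and its relatives can meet were read from a list of 8 plasminogen activation genes. S100a10 and Anxa2, which together bind plasminogen at the cell surface, had the most UMIs, at 784 to 1648 CPM and 675 to 1215 CPM over all kept cells. In fibroblast-like cells, where 3.86% of all genes were called, 1 of 6 tested members was called, Plaur, the urokinase receptor, which rose by 1.32 ± 0.24 on the log2 scale (edgeR adjusted p = 0.00947), and no member was called in papilla-like or sheath-like cells (5 tested in each, beside 1.62% and 4.60% of all genes). The third gene of that list by UMIs, the plasminogen receptor Plgrkt, was at 74.5 to 93.9 CPM. Of 15 thrombin and coagulation genes, 8 were tested in fibroblast-like cells: F13a1, the transglutaminase subunit of clotting factor XIII, rose by 2.06 ± 0.26 (adjusted p = 0.00123), Pros1, encoding the anticoagulant protein S, rose by 0.77 ± 0.16 (adjusted p = 0.0209), and F3, tissue factor, fell by 1.88 ± 0.26 (adjusted p = 0.00239). In sheath-like cells 7 were tested and the signs of F3 and F13a1 were opposite, a difference between classes that was not tested: F3 rose by 1.33 ± 0.43 (adjusted p = 0.0418), Thbd (thrombomodulin) by 0.72 ± 0.23 (adjusted p = 0.0361), and F13a1 fell by 1.08 ± 0.35 (adjusted p = 0.0487). Macrophage markers (13 genes) summed to 40.7 and 65.6 CPM in version 2 and to 82.2 and 44.2 CPM in version 3 in sheath-like cells. In fibroblast-like cells they summed to 38.2 and 195 and then 104 and 70.8 CPM, and their part in the F13a1 values was not tested. F2r, a thrombin receptor, and F5, coagulation factor V, stood at 54.3 to 119 and 61.3 to 85.0 CPM over all kept cells. Among 11 clearance receptors and cofactors, with Lrp1, Sdc4 and Sdc2 the highest, Sdc4, a heparan sulphate proteoglycan, rose in sheath-like cells by 0.70 ± 0.14 (adjusted p = 5.41e-05) and in fibroblast-like cells by 0.93 ± 0.16 (adjusted p = 0.00648), 1 of 9 tested in each.

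The other secreted inhibitors of thrombin and clotting proteases were low. Serpind1, heparin cofactor II, was the 1 member highest in sheath-like cells, which held 85.1% of its UMIs, at 3.18 and 7.61 CPM in version 2 and 8.30 and 11.1 CPM in version 3. The ratio at 18 months was 2.39 (0.909 to 7.96) and that at 12 months 1.34 (1.13 to 1.59), and the log2 fold of 0.55 ± 0.22 was not called (edgeR adjusted p = 0.189). Serpinc1, antithrombin, stood at 0.187 to 1.49 CPM over all kept cells, and Serpina10, the inhibitor of factor X that depends on protein Z, at 0.747 to 2.19 CPM. Serpina10 was at least 2-fold higher in both chemistries in fibroblast-like cells, at 1.25 and 4.82 CPM and 1.09 and 3.36 CPM, with an adjusted p of 0.163. Serpini1, neuroserpin, was highest in pericyte-like cells in every library, at 64.7, 39.4, 20.4 and 77.8 CPM, the last 2 from 41 and 14 cells.

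Serpina3 genes, the mouse relatives of human antichymotrypsin, gave the calls in fibroblast-like cells. In that class 3 of 16 tested members rose and 0 fell, against 2.26% of all 11618 genes higher and 1.60% lower (3.86% in all). The 3 were Serpina3n (chr12:104406729-104414329, plus strand), Serpina3c (chr12:104146382-104153870, minus strand) and Serpina3m (chr12:104338486-104394257, plus strand). Serpina3n stood at 124 and 322 CPM at 2 and 18 months in version 2 and at 87.0 and 360 CPM at 2 and 12 months in version 3, with both older libraries above both 2-month libraries. The ratios were 2.60 (2.24 to 3.02) and 4.14 (3.729 to 4.603), the log2 fold 1.78 ± 0.19, and the edgeR adjusted p 0.000479 (1.89e-20 to 0.773 over 11 alternatives, 6 of which called it). Serpina3n was found in 24.3%, 39.3%, 19.2% and 49.5% of fibroblast-like cells and in 18.3%, 31.6%, 13.6% and 37.2% after thinning, against 0% to 2.04% of thinned keratinocyte-like cells.

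Serpina3c was at 12.5 and 56.7 CPM in version 2 and at 4.57 and 19.5 CPM in version 3, ratios of 4.53 (2.88 to 7.52) and 4.27 (2.71 to 7.07), a log2 fold of 2.19 ± 0.23 and an edgeR adjusted p of 0.000476, with 6 of 11 alternatives calling it. Serpina3m was at 1.25 and 9.45 CPM and at 0.435 and 2.02 CPM, and its log2 fold of 2.61 ± 0.64 passed narrowly (adjusted p = 0.0469) and in 1 of 8 alternatives. Serpina3g went from 4.38 to 6.49 CPM and from 1.305 to 7.95 CPM without a call (adjusted p = 0.123). Unadjusted, 5 members and 13.5% of genes passed. Serpina10, Serpina3c, Serpina3m and Serpina3n were at least 2-fold higher in both chemistries (1.71% of genes) and no member at least 2-fold lower (1.38%). The median log2 fold of the 16 tested members was 0.18, beside -0.02 for all genes tested.

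Most of the Serpina3n and Serpina3c signal lay in cluster 6, whose leading genes include Angptl1, Cyp2f2 and Mmp3. In cluster 6 Serpina3n was at 217 and 518 CPM in version 2 and 400 and 510 CPM in version 3, in cluster 7 at 21.9 to 46.3 CPM, and in cluster 17 at 44.9, 233, 26.5 and 135 CPM. Cluster 6 made up 50.9% and 59.9% of the fibroblast-like class in version 2 and 27.2% and 69.6% in version 3. Fitted alone, cluster 6 gave Serpina3n a log2 fold of 0.89 ± 0.36 (edgeR adjusted p = 0.455) and Serpina3c one of 1.24 ± 0.46 (adjusted p = 0.379), and called 0 members, as did cluster 7 alone. Serpina3c in cluster 6 was at 20.1 and 91.7 CPM in version 2 and at 25.6 and 27.3 CPM in version 3. At resolution 1 the fibroblast-like class held a perifollicular cluster with Coch and Tnn, of 77, 160, 9 and 165 cells in the same order. It also held a cluster with Cyp2f2, of 29, 263, 48 and 331 cells. The part of such a mix in the cluster 6 values was not tested.

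Other cells moved within the same class. The summed CPM of 8 melanocyte markers went from 3843 to 56.9 in version 2 and from 813 to 68.1 in version 3, in 3 to 14 cells per library with at least 5 such UMIs. Without these cells Serpina3n and Serpina3c kept log2 folds of 1.71 and 2.14 and edgeR adjusted p-values of 0.00816 and 0.00542, and Serpina3m, at 2.49 ± 0.62, was no longer called (adjusted p = 0.1). Dendritic and Langerhans markers (12 genes) went from 363 to 880 CPM and from 331 to 462 CPM, macrophage markers (13 genes) from 38.2 to 195 and from 104 to 70.8 CPM, and suprabasal keratinocyte markers (13 genes) from 1079 to 370 and from 359 to 219 CPM. Rapid response genes moved as well, in classes with and without a call. The summed CPM of 25 of them, which include Fos, Jun and Egr1, went from 5940 to 9389 and from 9686 to 12970 in fibroblast-like cells. In sheath-like cells it went from 3542 to 5964 and from 4514 to 10837. Papilla-like cells, where no member was called, went from 1583 to 5572 and from 13687 to 23573. In these 3 classes between 23 and 25 of the 25 genes were higher in the older library of each pair. The other classes tested had no call either. Their sums went from 7473 to 11145 and from 13124 to 11642 in macrophage and dendritic-like cells. Keratinocyte-like cells went from 10851 to 9950 and from 9828 to 9618. The part of these genes and markers in the Serpina3 values was not tested.

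**Figure D3:**
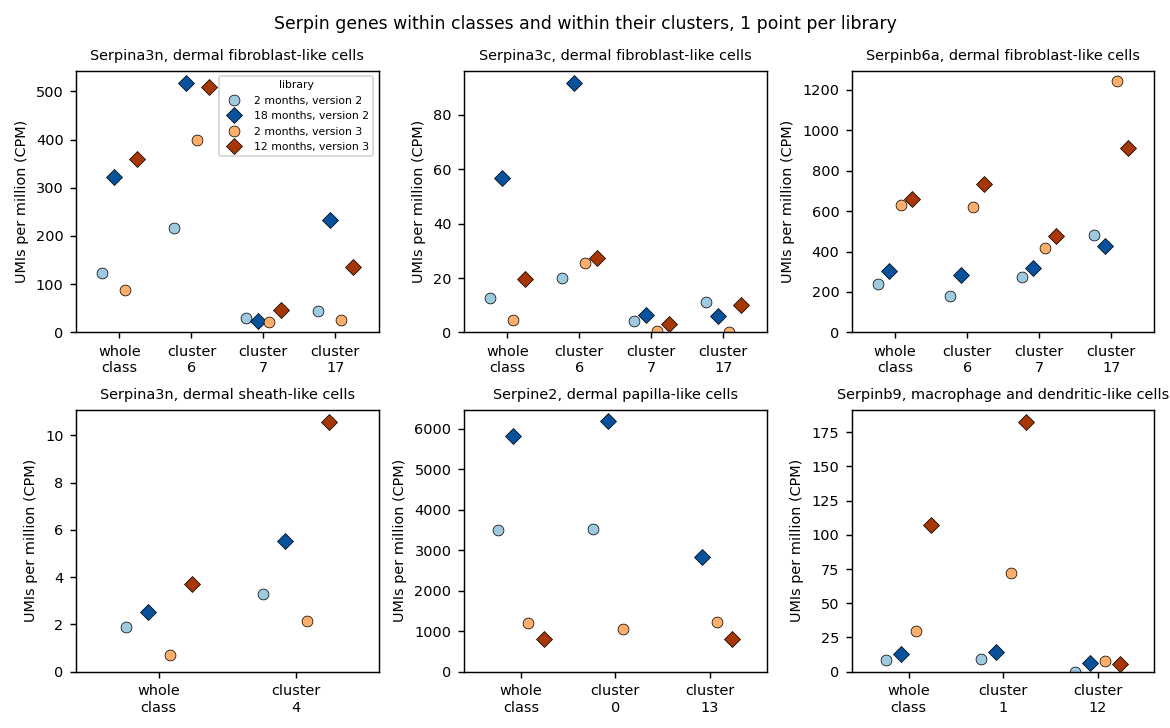
Each panel shows CPM of 1 Serpin gene in 1 class and in the clusters of that class, with 1 point per library (libraries with under 10 cells left out). Serpina3n in the fibroblast-like class is at 124 and 87.0 CPM at 2 months and 322 and 360 CPM in the older libraries, while within cluster 6 the 2-month version 3 library is already at 400 CPM. Serpinb6a is higher in both version 3 libraries than in both version 2 libraries in the whole class and in clusters 6, 7 and 17.

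Outside fibroblasts, Serpina3n was at 23.9, 38.6, 70.1 and 97.2 CPM in pericyte-like cells and at 89.1 and 139 CPM in endothelium-like cells of version 3. In sheath-like cells 1 of 14 tested members was called, Serpina3n, higher, against 3.05% of 12574 genes higher, 1.54% lower and 4.60% called in all. Unadjusted, 5 members and 12.5% of genes passed. No member with enough UMIs was at least 2-fold higher or lower in both chemistries there, as 0.584% and 0.245% of genes were. Serpina3n stood there at 1.91 and 2.54 CPM (3 and 9 UMIs) in version 2 and at 0.689 and 3.72 CPM (22 and 92 UMIs) in version 3, with a log2 fold of 2.17 ± 0.47 and an edgeR adjusted p of 0.000286. At 12 months it was found in 3.75% of sheath-like cells, 3.32% of papilla-like cells and 1.37% of keratinocyte-like cells, and its level in keratinocyte-like cells was 3.97 CPM. The CPM of the whole sheath-like class at 12 months was thus no higher than in keratinocyte-like cells, and no order is read from the shares. In the shared cluster 4 Serpina3n was at 3.27 and 5.51 CPM in version 2 and at 2.16 and 10.6 CPM in version 3 (log2 fold 2.01 ± 0.50, adjusted p = 0.0454). In the whole sheath-like class the version 2 pair alone gave a log2 fold of 0.38. In papilla-like cells Serpina3n went from 2.32 to 3.52 CPM in version 2 and from 1.05 to 3.44 CPM in version 3. It was not called there (edgeR adjusted p = 0.444), though 2 of 7 alternatives called it.

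Over all kept cells 6 members were at least 2-fold higher in both chemistries, against 2.08% of 14592 genes: Serpina3n, Serpina3c, Serpina3g, Serpina3i, Serpina3m and Serpinb9b. Serpina3n went from 16.99 to 96.7 CPM and from 8.14 to 69.0 CPM, ratios of 5.69 (5.01 to 6.48) and 8.48 (7.76 to 9.28). Serpina3c went from 1.81 to 19.5 and from 0.471 to 3.76 CPM, Serpina3g from 1.12 to 4.12 and from 0.400 to 1.98 CPM, Serpina3m from 0.685 to 3.18 and from 0.0286 to 0.356 CPM, and Serpina3i from 0.124 to 0.781 and from 0.186 to 0.733 CPM. Fibroblast-like cells numbered 218 of 1677 and 708 of 2431 kept cells in version 2 and 416 of 5388 and 727 of 3964 in version 3, so more such cells and more RNA per cell cannot be told apart in these sums. Serpina12 was the 1 member at least 2-fold lower in both (1.55% of genes), at 2.99 and 0.417 CPM and at 2.37 and 0.693 CPM. By edgeR 0 of 27 tested members and 0 of 15458 genes were called (percent called 0), with 11 members and 1698 genes at an unadjusted p under 0.05. DESeq2 called 3 members, Serpina3b, Serpina3c and Serpina3n, and the first of these rests on the 8 cells described above.

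The Serpina3 promoters did not hold the letters TGANTCA. TTCNNNGAA was found in 3 of the 8 Serpina3 members with an entry, Serpina3f, Serpina3g and Serpina3i, beside 8.30% of all promoter windows, and Serpina3n and Serpina3c held neither motif. The windows of Serpina3g and Serpina3n are shown as an example of each, with the TTCNNNGAA match in capitals, which starts at -33 in Serpina3g.
Serpina3g, chr12:104235897-104236196, + strand: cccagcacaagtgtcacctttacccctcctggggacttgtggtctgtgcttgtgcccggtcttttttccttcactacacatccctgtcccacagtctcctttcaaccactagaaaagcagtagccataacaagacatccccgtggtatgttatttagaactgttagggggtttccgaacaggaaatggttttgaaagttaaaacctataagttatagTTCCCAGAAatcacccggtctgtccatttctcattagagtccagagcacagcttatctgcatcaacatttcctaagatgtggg
Serpina3n, chr12:104406458-104406757, + strand: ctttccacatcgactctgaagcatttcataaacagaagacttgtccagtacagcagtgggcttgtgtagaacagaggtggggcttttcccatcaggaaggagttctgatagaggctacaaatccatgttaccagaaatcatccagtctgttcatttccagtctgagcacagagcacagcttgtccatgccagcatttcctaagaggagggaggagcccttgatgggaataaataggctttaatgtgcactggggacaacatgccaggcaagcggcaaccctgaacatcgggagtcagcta
Of the 60-base stretches near the 3' end, 9.11% in Serpina3g and 13.2% in Serpina3i were also found in other members. Each of these genes had the other as its closest member, so part of their UMIs may be split between them. For Serpina3m the share was 2.21%, with Serpina3n as the closest member, and Serpina3m overlaps Serpina3k on the same strand. Serpina3f was highest in pericyte-like cells, from 0 to 6 UMIs per library, and next in papilla-like cells, at 0, 4.22, 2.72 and 5.81 CPM. In papilla-like cells it was at least 2.94-fold higher at 18 months than at 2 months in version 2, the lower 95% limit of a ratio to a count of 0, and 2.13 (1.18 to 3.81) times higher at 12 months, and it was not called (edgeR adjusted p = 0.199).

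In papilla-like cells 0 of 9 tested members were called by edgeR, against 1.10% of 11436 genes higher, 0.516% lower and 1.62% called in all. At an unadjusted p under 0.05 there were 4 members and 9.73% of genes, and DESeq2 called 0 members. Among members with enough UMIs, Serpina3f was the 1 at least 2-fold higher in both chemistries (0.553% of genes) and Serpinb5 the 1 at least 2-fold lower (0.714%), at 7.63 and 2.81 CPM and at 3.34 and 1.32 CPM. Suprabasal keratinocyte markers moved with Serpinb5 in papilla-like cells, from 1145 to 395 CPM and from 329 to 154 CPM, and their part was not tested. The median log2 fold was 0.11 over tested members in papilla-like cells and 0.21 in sheath-like cells, beside -0.01 and 0.00 over all genes.

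**Figure D4:**
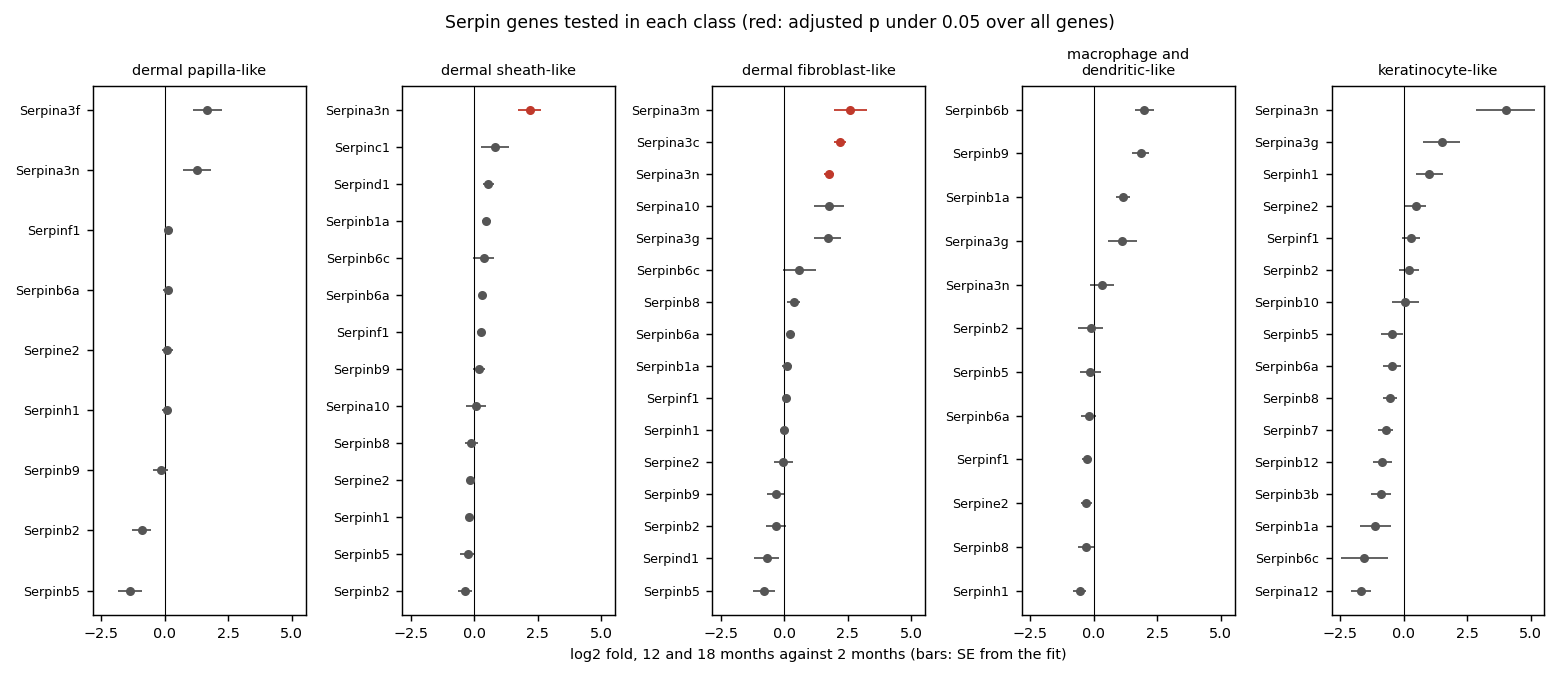
Points are edgeR log2 folds of the 12- and 18-month libraries against both 2-month libraries for each tested Serpin gene in 5 classes, and bars are the SE from the fit, which pools variation over genes. Red points passed an adjusted p of 0.05: 1 in sheath-like and 3 in fibroblast-like cells, all above 0.

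The clade B genes of leukocytes and of many cell types were spread more widely. Serpinb6a, an inhibitor of cathepsin G and other granule proteases, was found in every class. It stood at 240, 302, 629 and 660 CPM in fibroblast-like cells, its highest class, and at 128, 187, 307 and 378 CPM over all kept cells. The macrophage and dendritic-like class held 82.0 and 83.3 CPM in version 2 and 600.5 and 298 CPM in version 3. Within the fibroblast-like class, cluster 17, led by Inmt, Sfrp4 and Myoc, held 483, 429, 1242 and 914 CPM. In cluster 12 of the macrophage and dendritic-like class, led by Pf4 and C1qa, the version 3 levels were 645 and 604 CPM, and in the dendritic cluster 1 they were 515 CPM at 2 months and 73.8 CPM at 12 months. Serpinb1a, an elastase inhibitor, was highest in macrophage and dendritic-like cells, at 13.7, 36.1, 80.5 and 115 CPM, with 33.2 to 60.02 CPM in fibroblast-like cells and 12.6 to 37.0 CPM over all kept cells.

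Serpinb9 in mouse is related to the human granzyme B inhibitor, and in version 3 it was concentrated in the dendritic cluster 1, led by Ccr7. It was at 9.60, 14.5, 72.4 and 182 CPM in cluster 1 and at 0 to 8.10 CPM in the macrophage cluster 12, while papilla-like cells held 7.14 to 13.4 CPM. Over the whole class it stood at 8.54, 13.2, 30.0 and 107.5 CPM, and over all kept cells at 6.10, 10.3, 12.0 and 20.04 CPM. Serpinb6b, a relative of Serpinb6a, stood at 7.69, 14.2, 4.42 and 18.6 CPM in macrophage and dendritic-like cells, and was highest by mean in pericyte-like cells, at 50.8, 37.8 and 29.2 CPM with no UMI in the 14 cells of the 12-month library. Serpinb9 was found in 8.33%, 8.20%, 9.86% and 21.2% of macrophage and dendritic-like cells and in 0% to 1.83% of keratinocyte-like cells.

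No member was called in macrophage and dendritic-like cells by edgeR (0 of 12 tested, beside 0 of 11657 genes, percent called 0), with 3 members and 1470 genes (12.6%) at an unadjusted p under 0.05 and 1 member by DESeq2. The 3 were Serpinb9, Serpinb6b and Serpinb1a, with log2 folds of 1.84 ± 0.34, 1.99 ± 0.38 and 1.15 ± 0.28 and edgeR adjusted p of 0.101, 0.101 and 0.159. With cluster 1 alone all 3 were called, at 1.55 ± 0.32 (adjusted p = 0.0299), 1.62 ± 0.34 (adjusted p = 0.0319) and 1.84 ± 0.28 (adjusted p = 0.0146). No member was at least 2-fold higher (0.934% of genes) or lower (2.52%) in both chemistries. For Serpinb9 in the whole class the 18-month ratio was 1.54 (0.755 to 3.46) and the 12-month ratio 3.58 (3.05 to 4.22). Cluster 1 made up 86.1% and 82.8% of the class in the 2- and 18-month libraries of version 2, and 24.2% and 44.8% in the 2- and 12-month libraries of version 3. In that order it held 93, 303, 177 and 338 cells, while the dendritic cluster at resolution 1 held 90, 303, 127 and 338. Serpinb6a in cluster 1 was also far higher at 2 than at 12 months in version 3, as given above. The part of other cells in the cluster 1 calls was not tested. The median gene moved by -0.30 at 18 months and -0.33 at 12 months on the log2 scale before scaling in this class. Serpinb9b was low, at 0.187, 0.573, 0.343 and 1.11 CPM over all kept cells. Of the 11 leukocyte and mast cell proteases that such serpins can meet, 3 were tested in this class and 0 called; Mcpt4, Cma1 and Prtn3 had the most UMIs over all kept cells, 1033, 653 and 292.

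Targets of other kinds were called in fibroblast-like cells. Of 8 cathepsins and caspases 3 rose and 0 fell, against 2.26% and 1.60% of all genes, namely Ctsk by 1.47 ± 0.18 (edgeR adjusted p = 0.00101), Ctsh by 0.73 ± 0.16 (adjusted p = 0.0292) and Ctsb by 0.72 ± 0.17 (adjusted p = 0.0426), while Ctsl stood at 147 and 278 CPM and at 374 and 467 CPM over all kept cells. Of 16 epidermal and trypsin-like serine proteases 7 were tested and 2 rose, the secreted proteases Htra3 by 0.78 ± 0.16 (adjusted p = 0.0188) and Htra1 by 0.72 ± 0.15 (adjusted p = 0.0247). In sheath-like cells Klk8, a kallikrein of the epidermis, fell by 2.25 ± 0.44 (adjusted p = 3.22e-05), 1 of 8 tested. Suprabasal keratinocyte markers went from 973 to 374 CPM and from 295 to 166 CPM in that class, and their part was not tested. Htra1, Prss12 and Klk7 had the most UMIs in that list, and Klk7, a kallikrein that cleaves corneodesmosomes, was at 535 CPM in the 2-month version 2 library and at 69.7 to 109 CPM in the others. Over all 8 partner lists 10 genes rose and 2 fell of 64 tested in fibroblast-like cells, 4 and 2 of 63 in sheath-like cells, 1 and 0 of 61 in papilla-like cells, and 0 of 69 and 0 of 68 were called in macrophage and dendritic-like and in keratinocyte-like cells. Over all genes 2.26% rose and 1.60% fell in fibroblast-like cells, 3.05% and 1.54% in sheath-like cells and 1.10% and 0.516% in papilla-like cells, and 0 were called in the other 2 classes. Calls of partner genes, here and above, were not followed over the alternatives or within clusters. In fibroblast-like cells 449 of 11618 genes were called, beside 5 of 11603 at resolution 1 and 0 of 11618 with no chemistry covariate. The share of cluster 6 in that class also moved, as given above, and its part in the partner calls was not tested.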

How the data were processed

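Single-cell RNA-seq counts were deposited per library as matrices of UMI counts per gene and barcode. Per the submitters' processing notes, GRCm38.p5 and mm10 were the builds, and STAR, Cell Ranger 2.0.1 and Seurat 2.1.0 the tools; per the file headers, software 3.0.1 wrote the version 3 matrices. A cell was kept if it had 500 or more genes, 1000 or more UMIs and less than 10% of UMIs from mitochondria, and the 3% with the highest Scrublet score in each library were removed as doublets. Cells were clustered in scanpy 1.11.5 (2000 variable genes without Serpin genes, 30 components, 15 neighbours, resolution 0.5) and the 21 clusters named from 21 marker lists. UMIs were summed per library and class. The 12- and 18-month libraries were compared with both 2-month libraries by edgeR 4.0.16 in R 4.3.3 (quasi-likelihood F-test, filterByExpr, TMM, chemistry as covariate, Benjamini-Hochberg over all genes, 0.05). Genes that failed the filter on low counts were not tested. The fit leaves 1 residual degree of freedom and pools variation over genes; SE is the absolute log2 fold over the square root of F.

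Ratios within a chemistry carry exact conditional Poisson intervals and shares of cells Clopper-Pearson intervals, without a test, since each age in a chemistry is 1 library. PCR and free RNA are not covered by these intervals. Shares were also computed with cells thinned to 3000 UMIs, leaving out shallower cells. 1 gene that begins with the same letters is not reported here; it stayed in the fits and is in no count of members. Values were described for members with at least 50 UMIs, in full for those with at least 1000, and members were named where called or at least 2-fold changed the same way in both chemistries with at least 10 UMIs. The members, the 8 partner lists and the marker lists were chosen with earlier results of these data known. Alternatives were DESeq2 1.42.0, other size factors, no filter, no covariate, 18 months against all younger mice, at least 1000 genes per cell, doublets kept, resolution 1 and, chosen after seeing the data, single clusters and removal of cells with melanocyte UMIs. On simulated counts with 200 changed genes, the fit recovered 26% of 2-fold and 73% of 4-fold changes over all kept cells, 43% and 89% in fibroblast-like cells, and 4% and 54% in keratinocyte-like cells.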

Additional observations from a re-analysis of the deposited data

Results flagged for a closer look

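Serpine2 moved in opposite directions with age in the 2 chemistries, in both of the classes named here, by more than 1.3-fold each way. In papilla-like cells its CPM at 18 months was 1.66 times that at 2 months in version 2, and its CPM at 12 months was 0.669 times that at 2 months in version 3. In fibroblast-like cells the order was the reverse, with a ratio of 0.465 at 18 months and 1.92 at 12 months. The difference between the pairs was not tested, since each age in a chemistry is 1 library, and age at sampling, chemistry, reporter and sex cannot be told apart in it.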

How the results depend on the processing

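Counts of Serpin members called moved with the settings. Over all kept cells DESeq2 called 3 in place of 0. In papilla-like cells the count of 0 became 1 with no filter on low counts, 2 with doublets kept and 1 at resolution 1. In sheath-like cells the 1 call became 3 at resolution 1 and 0 with no chemistry covariate, with 18 months against all younger mice, with DESeq2 and with doublets kept. In fibroblast-like cells the 3 calls became 0 with no covariate, with 18 months against younger, at resolution 1, with cluster 6 alone and with cluster 7 alone, 2 with DESeq2, with RLE size factors, with at least 1000 genes, with doublets kept and without cells holding melanocyte UMIs, and 4 with no filter. In macrophage and dendritic-like cells the count of 0 became 2 with RLE size factors, 3 with no filter, 1 with DESeq2, 1 with at least 1000 genes, 1 with doublets kept, 2 at resolution 1 and 3 with cluster 1 alone. In keratinocyte-like cells it became 4 with no filter and 2 with 18 months against younger. The causes were not tested. Of the alternative values of the members called or at least 2-fold changed in both chemistries, and of the shares of cells with a UMI, 196 kept their call or moved by less than their interval or SE, 66 moved, 21 lost a call, 4 gained one and none reversed. Members chosen for moving the same way in both chemistries could hardly reverse within 1 chemistry, so the lack of reversals there is no support. Each log2 fold from 1 pair of libraries alone was counted 2 times in this tally. No paired analysis was possible because each age in each chemistry is 1 library and replicate numbers do not tie mice across ages. With 1 library per age and chemistry, a difference between libraries and one between ages cannot be told apart.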
